A study of Homo sapiens with 9 samples.

Results

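The p53 target genes are genes whose transcription the tumour suppressor p53 is known to raise. A list of 34 of them was taken by gene symbol from the count table of 9 RNA-seq libraries of MOLM13, an established acute myeloid leukemia (AML) line of the myeloid lineage with a KMT2A (MLL) fusion. All 34 were found among the 57820 genes of the table, C12orf5 (now named TIGAR) and PIDD (now named PIDD1) under their older symbols. A filter on low counts kept 33 of the 34 and 14754 genes in all. The member it removed was SPATA18, which encodes a protein of mitochondrial quality control and had a count of 0 in every library.

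The libraries form 3 groups with 3 biological replicates each. The CTRL group carried a non-targeting sgRNA and is labelled wild type. The RBM5 KO group carried the single guide RBM5-sg1, and the RBM5 OE group carried a lentiviral vector with the RBM5 cDNA linked to Venus by a P2A peptide. All groups are labelled as untreated, although the study's methods for guide lines include selection with blasticidin and puromycin. RBM5 is an RNA-binding protein of the spliceosome, and the comparisons ask which transcripts change with its loss or gain. The cultures were sequenced as bulk RNA, so a change in every cell and a change in the share of cells that express a gene cannot be told apart. RBM5 KO rests on 1 guide, its control guide has no target to cut, and CTRL did not carry the Venus vector, so RBM5 and the reagent that altered it cannot be told apart. The p-values describe the spread between these replicate cultures of 1 line.

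In unstressed cells p53 is held low by MDM2, a ubiquitin ligase that p53 itself induces. DNA damage and other stress free p53 to bind response elements near its targets, whose products stop the cell cycle, drive or restrain apoptosis, repair DNA and alter metabolism and autophagy. The levels of p53 targets are a common readout of stress in leukemia cells.

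A p53 response element consists of 2 adjacent half-sites of 10 bases. The genome (GRCh37) was searched for elements without a spacer, with at most 2 mismatches to the p53 consensus and with the C and G of each core required, within 3000 bases of the start of each gene's canonical transcript. The element is palindromic, so both strands are covered. A match was present for 13 of the 34 members (38.2%) and for 924 of 19880 protein-coding genes (4.65%). A match is a description of these letters and does not show that p53 was bound, and members without a match may have an element that is spaced, weaker or farther away. The elements below belong to members whose levels are given library by library or that matched without a mismatch. They are the sequences to hold beside the values that follow. RRM2B also matched, in an intron with 1 mismatch, and its element is named only. The elements are written 5′ to 3′ on the strand of their gene, which is the minus strand for PLK2 and ZMAT3. The 4 core bases of each half-site are in capitals.
CDKN1A, chr6:36644226-36644245, upstream, position −2256 from the start, 2 mismatches: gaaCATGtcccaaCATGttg
BTG2, chr1:203272770-203272789, upstream, position −1868, 2 mismatches: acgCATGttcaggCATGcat
PLK2, chr5:57758101-57758120, upstream, position −2197, 0 mismatches: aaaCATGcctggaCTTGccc
GADD45A, chr1:68152458-68152477, intron, 1 mismatch: gaaCATGtctaagCATGctg
BAX, chr19:49458470-49458489, intron, 2 mismatches: gggCAGGcccgggCTTGtcg
ZMAT3, chr3:178787976-178787995, intron, 0 mismatches: aaaCAAGtccagaCATGcct
DDB2, chr11:47236520-47236539, exon, 1 mismatch: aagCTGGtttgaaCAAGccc
DRAM1, chr12:102273972-102273991, intron, 2 mismatches: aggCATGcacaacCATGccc

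These 8 elements differed in their cores. CATG stood in both half-sites of the CDKN1A, BTG2, GADD45A and DRAM1 elements, whereas the DDB2 element joined CTGG to CAAG and the BAX element joined CAGG to CTTG. Of the other 5 members with a match, AEN, CCNG1, ACER2, SPATA18 and RRM2B, CCNG1 had more than 1.

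RBM5 itself was measured first, as the check of the labels. Its level in CPM (counts scaled to library size) was 122, 117 and 113 in CTRL, 70.5, 73.9 and 79.4 in RBM5 KO and 380, 414 and 416 in RBM5 OE, so the 3 groups did not overlap and each moved as labelled. Of the exonic bases of RBM5, 21.2% are shared with neighbouring genes, and reads of the vector's coding sequence are counted with the endogenous gene. All 8 markers fixed for MOLM13 (PTPRC, CD33, SPI1, FLT3, HOXA9, MEIS1, MPO and LYZ) were above 0 in every library, and their summed level was 2560 to 2710 CPM in CTRL, 3240 to 3620 in RBM5 KO and 1950 to 2060 in RBM5 OE. LYZ, the gene of lysozyme and the most abundant of the 8, averaged 1310, 2220 and 535 CPM in these groups. The other markers did not all follow it, since of the 8 markers LYZ was called higher and FLT3 lower in RBM5 KO against CTRL, and PTPRC, SPI1 and HOXA9 were called higher and CD33 and LYZ lower in RBM5 OE against CTRL. The part of these differences in the results was not tested. Summed over 3 markers each, T cell, B cell, erythroid, epithelial and fibroblast genes reached at most 4.9 CPM in any library, and 2 of the 3 erythroid and 2 of the 3 epithelial markers were at 0 in all 9.

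A pair of libraries stood apart. The deviations of CTRL replicate 3 and RBM5 KO replicate 1 from their group means correlated with r = 0.355 across genes, while all other pairs of libraries from different groups lay between −0.242 and 0.153. Among the members, CTRL replicate 3 lay a median of 0.107 below the other CTRL libraries on the log2 scale and RBM5 KO replicate 1 a median of 0.13 below the other RBM5 KO libraries, against −0.00125 and 0.00709 over all genes tested. In 15 of 33 members both libraries were the lower ones, beside 4462 of all 14218 genes tested. The counts below are therefore also given without this pair. It was picked from these same data, so those counts are descriptive.

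In CTRL the members spanned a wide range of levels in TPM, which RSEM scales for both transcript length and library size. BAX, the pore-forming protein of the mitochondrial path to apoptosis, was at 226 ± 7.91 TPM (SD, n = 3) and CDKN1A, the cyclin-dependent kinase inhibitor p21, at 209 ± 56.9. Their libraries overlapped, so the order of these 2 is not settled. CCNG1 (cyclin G1) followed at 91.5 ± 12 and TRIAP1, an inhibitor of apoptosis, at 49.3 ± 3.85, each clear of the next above in every library. At the other end stood TNFRSF10C, a decoy receptor for the death ligand TRAIL, at 1.07 ± 0.283, ACER2, an alkaline ceramidase, at 0.837 ± 0.464, and PERP, a membrane protein of the apoptosis path, at 0.0567 ± 0.0503. PERP had as few as 1 count in a library, and its fold changes are not read.

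**Figure D1:**
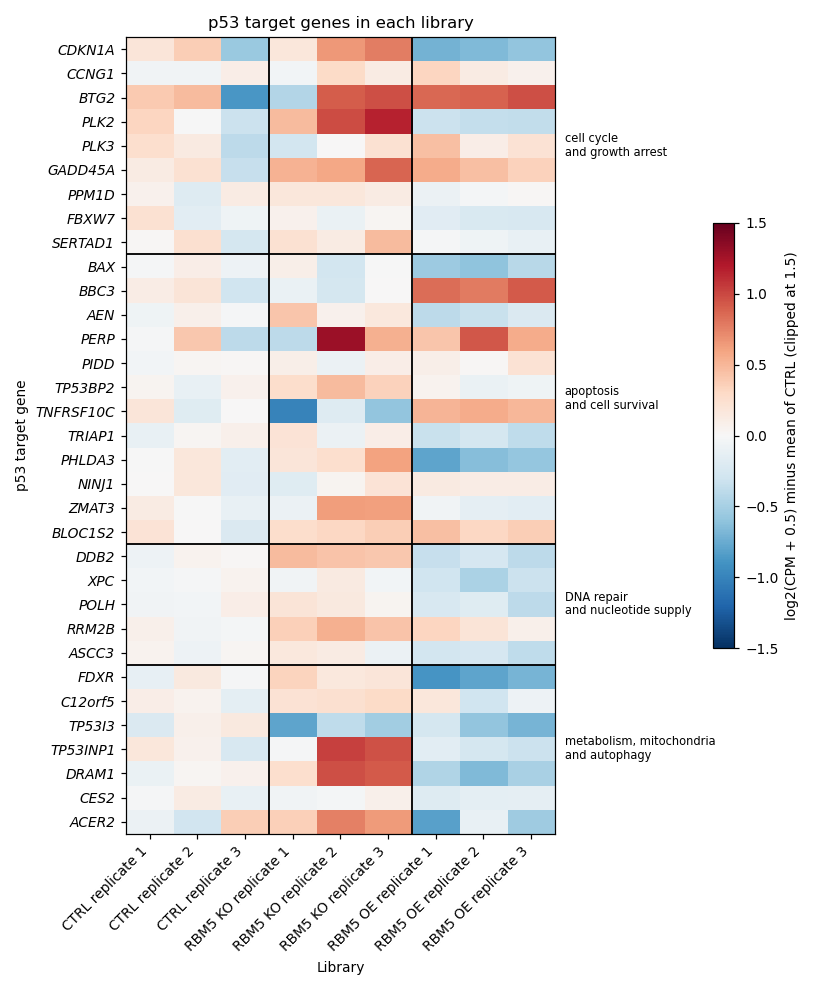
Heat map of the 33 members that passed the filter, with 1 row per gene grouped by role and 1 column per library. Colour is log2(CPM + 0.5) minus the CTRL mean, clipped at 1.5, and a reader should see that CDKN1A, BTG2, TP53INP1 and DRAM1 were lower in RBM5 KO replicate 1 than in the other RBM5 KO libraries, and that the RBM5 OE libraries resembled each other.

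With loss of RBM5, DNA repair members were the ones that passed the test. DDB2, a subunit of the damage sensor of nucleotide excision repair, and RRM2B, the p53-inducible subunit of ribonucleotide reductase, rose in RBM5 KO against CTRL, by 1.35-fold and 1.36-fold. No member fell and 31 were not called in this comparison. These counts come from edgeR's quasi-likelihood test, with a call at an adjusted p under 0.05 after Benjamini-Hochberg adjustment over all 14218 genes tested. Of all those genes 0.837% were called higher and 1.67% lower. Among the members, 6.06% were called higher. The median log2 fold change was 0.22 over the members and 0.011 over all genes tested, and 26 members had a positive and 7 a negative value. At an unadjusted p under 0.05, 11 members were higher and 1 lower, beside 8.13% and 8.62% of all genes. DESeq2 called 7 members higher and 0 lower, and limma-voom 2 and 0, with 5.62% and 1.68% of all genes called in either direction by these tools and 2.51% by edgeR.

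DDB2 (chromosome 11, 47236016 to 47260768) was at 41.1, 44.7 and 43.9 CPM in CTRL and 60, 58.3 and 57.5 in RBM5 KO, which gave a log2 fold change of 0.44 ± 0.084 (SE, standard error, adjusted p = 0.0336). Each RBM5 KO library was above each CTRL library, with little spread in either group. RRM2B (chromosome 8, 103216730 to 103251189) was at 136, 125 and 127 CPM in CTRL and 165, 188 and 174 in RBM5 KO, which gave a log2 fold change of 0.44 ± 0.084 (SE, adjusted p = 0.0329). Its groups did not overlap either. Both calls were lost when any 1 of the CTRL libraries, RBM5 KO replicate 2 or RBM5 KO replicate 3 was left out, with an adjusted p of up to 0.182 for DDB2 and 0.154 for RRM2B. Without RBM5 KO replicate 1 both stayed, at 0.0185 and 0.00758. Of the other repair members, XPC, the lesion sensor of nucleotide excision repair, POLH, the translesion polymerase eta, and ASCC3, a helicase of alkylation repair, had log2 fold changes of 0.02 to 0.12 and were not called.

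No cell-cycle and growth-arrest member was called in RBM5 KO, and several varied between its libraries. CDKN1A (chromosome 6, 36644237 to 36655114) was at 374, 426 and 224 CPM in CTRL and 370.5, 519 and 560 in RBM5 KO. The groups overlapped, and the log2 fold change of 0.50 ± 0.23 (SE, adjusted p = 0.308) did not pass the test. BTG2, an antiproliferative cofactor on chromosome 1 (203274619 to 203278730), was at 68, 72 and 28.1 CPM in CTRL and 37.8, 97.8 and 102 in RBM5 KO. CTRL replicate 3 and RBM5 KO replicate 1 were each well below the rest of their group. GADD45A, a stress sensor that restrains the cell cycle (chromosome 1, 68150884 to 68154017), was at 13.2, 14.3 and 9.45 CPM in CTRL and 17.7, 18.5 and 22.6 in RBM5 KO. Its groups did not overlap, but its log2 fold change of 0.67 ± 0.17 (SE, adjusted p = 0.0826) was not called. PLK2, a polo-like kinase, had a log2 fold change of 0.90 with groups that did not overlap and an adjusted p of 0.064. CCNG1, PLK3, PPM1D, FBXW7 and SERTAD1 lay between −0.03 and 0.28. The 9 cell-cycle and growth-arrest members gave 0 calls in edgeR, 2 at an unadjusted p under 0.05, 2 in DESeq2 and 0 in limma-voom. Of all genes tested 8.13% were higher and 8.62% lower at that unadjusted p, and DESeq2 called 5.62% in either direction.

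The apoptosis members were not called in RBM5 KO. BAX (chromosome 19, 49458072 to 49465055) was at 120, 130 and 115 CPM in CTRL and 129, 100 and 121 in RBM5 KO, and BBC3, which encodes the BH3-only protein PUMA (chromosome 19, 47724079 to 47736023), was at 45.2, 47.8 and 33.9 CPM in CTRL and 39.2, 34.8 and 42.2 in RBM5 KO. Both overlapped with CTRL, and their log2 fold changes were −0.06 and −0.13. PHLDA3, a repressor of AKT signalling (chromosome 1, 201433406 to 201438365), was at 24.1, 27.4 and 21.6 CPM in CTRL and 27.5, 28.9 and 37 in RBM5 KO, for a log2 fold change of 0.35 (adjusted p = 0.248). TP53BP2, the p53-binding protein ASPP2, came nearest to a call, at 0.36 (adjusted p = 0.09). Over the 12 members of this group edgeR called 0, while DESeq2 called 1 higher and limma-voom 0, beside 5.62% of all genes in DESeq2. At an unadjusted p under 0.05, 4 were higher and 0 lower, beside 8.13% and 8.62% of all genes.

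Of the 7 tested members with roles in metabolism, mitochondria or autophagy, DRAM1, a lysosomal protein that promotes autophagy (chromosome 12, 102271358 to 102405908), was at 19.1, 21.1 and 21.6 CPM in CTRL and 24.5, 40.8 and 39.2 in RBM5 KO. Every RBM5 KO library was above CTRL, with replicate 1 far below the other two, and the log2 fold change of 0.76 ± 0.18 (SE, adjusted p = 0.064) was not called. TP53INP1, an autophagy and stress protein, showed the same split, with 23.1, 48.2 and 46.1 CPM in RBM5 KO against 19.8 to 26.5 in CTRL. FDXR, the mitochondrial ferredoxin reductase (chromosome 17, 72858619 to 72869156), was at 21.7, 26.2 and 23.3 CPM in CTRL and 29.9, 26.4 and 26.9 in RBM5 KO, for a log2 fold change of 0.22 (adjusted p = 0.339). TP53I3, a quinone oxidoreductase, had a log2 fold change of −0.67 (adjusted p = 0.196). This group gave 0 calls in edgeR and limma-voom and 2 higher in DESeq2, which called 5.62% of all genes. At an unadjusted p under 0.05, 3 were higher and 1 lower, beside 8.13% and 8.62% of all genes.

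Without CTRL replicate 3 and RBM5 KO replicate 1, which leaves 2 libraries in each group, the count of members called higher was 11 and that called lower 0, while 13.6% of all genes tested were then called in either direction. The 11 were CDKN1A, BTG2, PLK2, GADD45A, TP53BP2, ZMAT3 (an RNA-binding zinc finger protein), DDB2, RRM2B, TP53INP1, DRAM1 and ACER2. CDKN1A had a log2 fold change of 0.43 (adjusted p = 0.00211) and DRAM1 of 0.99 (adjusted p = 4.17e-07) in this fit. The pair was left out after its values were seen, so no weight is put on these p-values. Leaving out RBM5 KO replicate 1 alone gave 8 members called higher, with 7.66% of all genes called, and leaving out CTRL replicate 3 alone gave 0, with 1.55% called. The count in RBM5 KO therefore depended on which libraries were used, and the part of these libraries in the result was not tested further. Across all 33 members 12 had groups that did not overlap, against 22.9% of all genes tested.

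**Figure D2:**
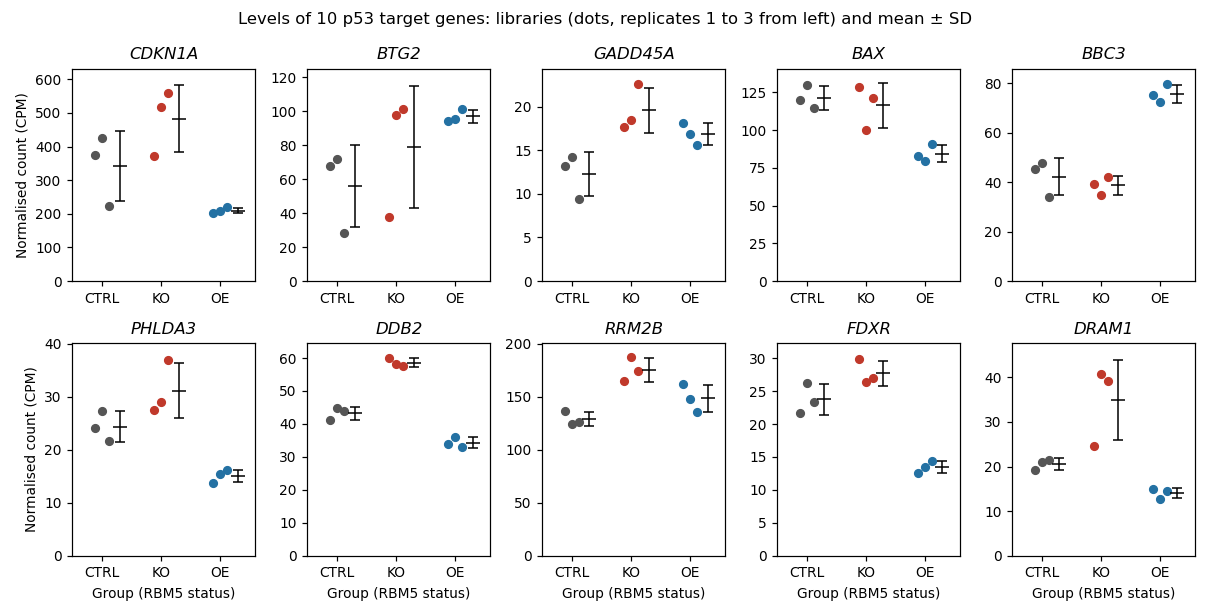
Levels in CPM (vertical axis, from 0) of 10 members in CTRL, RBM5 KO and RBM5 OE, with dots for replicates 1 to 3 from the left and bars for the mean ± SD (n = 3). The RBM5 OE libraries of BBC3 lie between 72.4 and 79.6, above every CTRL and RBM5 KO library, while those of FDXR lie between 12.6 and 14.4, below every one.

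With gain of RBM5, more members fell than rose. Against CTRL 11 members fell in RBM5 OE, CDKN1A, BAX, AEN, TRIAP1, PHLDA3, DDB2, XPC, POLH, ASCC3, FDXR and DRAM1, and 4 rose, BTG2, GADD45A, BBC3 and BLOC1S2. The other 18 were not called. Of the members 33.3% were lower and 12.1% higher, against 20.2% and 19.8% of the 14370 genes tested. The median log2 fold change was −0.16 over the members and 0.013 over all genes tested, but the member median was only −0.0298 on log2(TPM + 1), where all genes had 0.0344. Groups did not overlap for 21 of 33 members, against 51.7% of all genes tested. By role, 4 of 12 members fell and 2 rose in apoptosis and survival, and 4 of 5 fell in DNA repair. In metabolism and autophagy 2 of 7 fell, and in cell cycle and growth arrest 1 of 9 fell and 2 rose.

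Among the cell-cycle and growth-arrest members, CDKN1A fell to 201.5, 209 and 219 CPM in RBM5 OE, below the 224 to 426 of CTRL. Its log2 fold change was −0.70 ± 0.17 (SE, adjusted p = 0.0071). The lowest CTRL library was replicate 3, just above the highest RBM5 OE library, and without it the log2 fold change was −0.93. BTG2 went the other way, with 94.2, 95.7 and 101 CPM in RBM5 OE against 28.1 to 72 in CTRL, at a log2 fold change of 0.80 ± 0.25 (SE, adjusted p = 0.0235). Without CTRL replicate 3 the value for BTG2 was 0.47 (adjusted p = 3.74e-05), and without RBM5 OE replicate 1, 2 or 3 its adjusted p was 0.0637, 0.0524 or 0.066. The BTG2 call was also lost with DESeq2 (adjusted p = 0.111), with limma on log2(TPM + 1) (0.0528) and with all 9 libraries in 1 fit (0.112). GADD45A, at 18.1, 16.8 and 15.6 CPM, rose by 0.46 on the log2 scale (SE 0.14, adjusted p = 0.0237), and this call was lost without RBM5 OE replicate 1 (adjusted p = 0.101) or replicate 2 (0.0646). PLK2, SERTAD1, PPM1D, FBXW7, PLK3 and CCNG1 were not called, with values from −0.39 to 0.25.

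Apoptosis members moved in both directions. BAX fell to 83.2, 79.4 and 90.9 CPM, at a log2 fold change of −0.52 ± 0.075 (SE, adjusted p = 0.000278), and BBC3 rose to 75.5, 72.4 and 79.6 CPM, at a log2 fold change of 0.84 ± 0.11 (SE, adjusted p = 0.000147). Both products act on the mitochondrial path, where BBC3 relieves the block on BAX, and each gene was clear of CTRL in every library. PHLDA3 fell to 13.8, 15.4 and 16.1 CPM, at a log2 fold change of −0.69 ± 0.11 (SE, adjusted p = 0.000467). AEN, an apoptosis-enhancing nuclease, fell by 0.31 (adjusted p = 0.00666) and TRIAP1, which restrains apoptosis, fell by 0.33 (adjusted p = 0.00665) on the log2 scale. BLOC1S2, a subunit of a complex of lysosome-related organelles, rose by 0.38 (adjusted p = 0.0147). NINJ1, PIDD, ZMAT3, TP53BP2, PERP and TNFRSF10C were not called.

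DNA repair members fell, apart from RRM2B. DDB2 was at 34, 36.1 and 32.9 CPM in RBM5 OE, below every CTRL library, at a log2 fold change of −0.33 ± 0.075 (SE, adjusted p = 0.00471). XPC fell by 0.37 (adjusted p = 0.00274), ASCC3 by 0.30 (adjusted p = 0.00565) and POLH by 0.27 (adjusted p = 0.0236) on the log2 scale. The POLH call was lost in 5 of 17 alternatives (adjusted p up to 0.193) and that of ASCC3 in 2 (up to 0.26). Of the exonic bases of XPC 24.6% are shared with antisense or overlapping genes, and counting used no strand, so their reads cannot be told apart. RRM2B was at 162, 148 and 135.5 CPM, overlapping with CTRL, and its log2 fold change of 0.20 was not called (adjusted p = 0.0548). It was called higher in 8 of 17 alternatives, DESeq2 among them (adjusted p = 0.0412).

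FDXR had the lowest log2 fold change of the members in RBM5 OE against CTRL. It was at 12.6, 13.5 and 14.4 CPM in RBM5 OE against 21.7 to 26.2 in CTRL, at a log2 fold change of −0.82 ± 0.1 (SE, adjusted p = 0.000106). DRAM1 was at 14.9, 12.8 and 14.5 CPM, below every CTRL library, at a log2 fold change of −0.55 ± 0.099 (SE, adjusted p = 0.00116). The other metabolic members, C12orf5 (a fructose bisphosphatase), TP53I3, TP53INP1, CES2 (a carboxylesterase) and ACER2, had values from −0.74 to −0.06 and were not called. Over the 7 tested members of this group 0 were called higher in edgeR, DESeq2 or limma-voom. At an unadjusted p under 0.05, 0 were higher, beside 24.3% of all genes tested. Without CTRL replicate 3 the counts over all members were 5 higher and 14 lower, against 41.9% of all genes called in either direction.

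**Figure D3:**
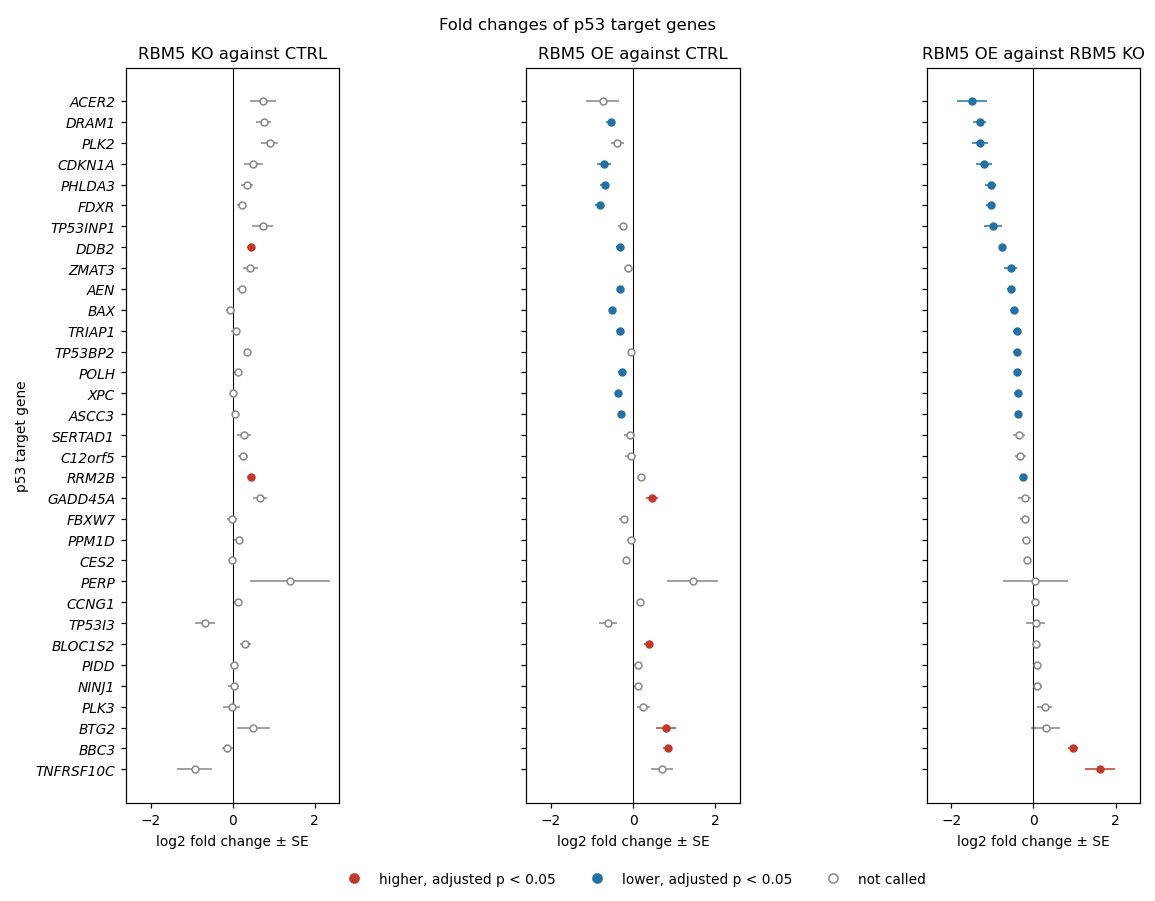
Log2 fold changes with standard errors (horizontal axis) of the 33 tested members in the 3 comparisons, ordered by the direct comparison of RBM5 OE with RBM5 KO. Filled points passed an adjusted p under 0.05, and the numbers of members higher and lower are 2 and 0 in RBM5 KO against CTRL, 4 and 11 in RBM5 OE against CTRL, and 2 and 17 in RBM5 OE against RBM5 KO.

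The direct comparison of RBM5 OE with RBM5 KO, which takes no difference from CTRL, separated the members most. Its groups also differ in reagent, a Venus vector against a targeting guide, and RBM5 and these reagents cannot be told apart. In RBM5 OE 17 of the 33 members (51.5%) were lower than in RBM5 KO and 2 (6.06%) were higher, against 20.6% lower and 19.5% higher of the 14754 genes tested. The median log2 fold change was −0.36 over the members and −0.0045 over all genes tested. The groups did not overlap for 23 members, against 52.6% of all genes tested. Without CTRL replicate 3 and RBM5 KO replicate 1, 18 members were lower and 2 higher, while the share of all genes called in either direction was 46.1%, against 40.1% with all 9 libraries.

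All 5 DNA repair members were lower in RBM5 OE than in RBM5 KO. DDB2 had a log2 fold change of −0.77 ± 0.074 (SE, adjusted p = 1.61e-05), from 57.5 to 60 CPM in RBM5 KO and 32.9 to 36.1 in RBM5 OE. RRM2B had the smallest difference of the group, −0.24 (adjusted p = 0.0351), and lost its call in 9 of 20 alternatives. XPC, POLH and ASCC3 lay between −0.40 and −0.37, and the ASCC3 call was lost in 2 of 20 alternatives (adjusted p up to 0.425).

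CDKN1A and PLK2 were the cell-cycle and growth-arrest members called lower. CDKN1A had a log2 fold change of −1.20 ± 0.2 (SE, adjusted p = 0.000719), a mean of 210 ± 8.76 CPM in RBM5 OE against 483 ± 99.7 in RBM5 KO. PLK2 was at 8.6, 8.43 and 8.34 CPM in RBM5 OE and 15.4, 22 and 24.9 in RBM5 KO, which gave a log2 fold change of −1.29 ± 0.19 (SE, adjusted p = 0.000304). GADD45A, at −0.21 (adjusted p = 0.283), and BTG2, at 0.29 (adjusted p = 0.54), overlapped between RBM5 OE and RBM5 KO and were not called. In cell cycle and growth arrest 0 members were called higher in edgeR, DESeq2 or limma-voom. At an unadjusted p under 0.05, 0 were higher, beside 23.6% of all genes tested.

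Of the apoptosis members 6 were lower and 2 higher. PHLDA3 had a log2 fold change of −1.04 (adjusted p = 9.92e-05), with BAX at −0.47, AEN at −0.54, TRIAP1 at −0.41, TP53BP2 at −0.40 and ZMAT3 at −0.55. The ZMAT3 groups overlapped, and its call was lost in 6 of 20 alternatives (adjusted p up to 0.243), that of TP53BP2 in 2 (up to 0.139). BBC3 was higher by 0.97 (SE 0.12, adjusted p = 9.92e-05). TNFRSF10C was higher by 1.62 (adjusted p = 0.00421), from a low level of 0.293 to 0.884 CPM in RBM5 KO to 1.74 to 1.83 in RBM5 OE, and 33% of its exonic bases are shared with overlapping genes. Of the exonic bases of PHLDA3, 18.4% overlap another gene on the same strand. Among the metabolic members, FDXR (−1.04, adjusted p = 2e-05), DRAM1 (−1.31, adjusted p = 0.000106), TP53INP1 (−0.99, adjusted p = 0.00433) and ACER2 (−1.49, adjusted p = 0.00656) were lower. ACER2 was near the floor, at 0.439 to 1.02 CPM in RBM5 OE.

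Of the 13 members with a p53 element by the search above, 9 were among the 17 called lower in RBM5 OE against RBM5 KO and 0 among the 2 called higher. Members not called held 3 of 14, or 21.4%, with SPATA18 the 1 that was not tested. BBC3 and TNFRSF10C, the 2 called higher, had no match in the window searched. The search allowed at most 2 mismatches and no spacer, so this does not show that they lack an element. In RBM5 OE against CTRL, a match was present for 2 of the 4 members called higher (50%) and 5 of the 11 called lower (45.5%). These shares describe the members and were not tested.

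Some regulators of p53 also differed between the groups. Of 14 listed, 12 were tested in RBM5 KO against CTRL and 13 in the other comparisons. In RBM5 KO, TP73, a p53 paralog that binds the same elements, rose by 1.28 on the log2 scale (adjusted p = 0.00116) and MDM2, itself a target and inhibitor of p53, rose by 0.67 (adjusted p = 0.0147). ATM, a damage kinase, was not called (0.22). The RBM5 OE libraries had 5 of 13 (38.5%) higher than CTRL and 3 (23.1%) lower, beside 19.8% and 20.2% of all genes tested. The checkpoint kinases went apart, as ATR fell by 0.58 (adjusted p = 0.00067) and CHEK1 rose by 0.54 (adjusted p = 0.00221), while TP73 fell by 0.49 (adjusted p = 0.00263). TP63, the other paralog, had a mean of 0.0647 CPM in CTRL and 1.13 in RBM5 OE, a low level in both groups. It passed the filter only in comparisons with the RBM5 OE libraries, where it is high. Its call is therefore not read, although it is among the 5 counted as higher than CTRL. Against RBM5 KO 5 (38.5%) were higher and 3 (23.1%) lower in RBM5 OE, beside 19.5% and 20.6% of all genes tested. The lower ones were TP73 at −1.77 (adjusted p = 6.42e-07), MDM2 at −1.04 (adjusted p = 1.32e-05) and ATR at −0.67 (adjusted p = 0.000583).

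A further 33 genes known as p53 targets were outside the list, and 30 of them were tested. In RBM5 KO against CTRL 3.33% of these 30 were called in each direction, beside 0.837% higher and 1.67% lower of all genes tested. At an unadjusted p under 0.05, 10 were higher and 2 lower, beside 8.13% and 8.62% of all genes. DESeq2 called 2 higher and 2 lower, and limma-voom 0 and 0. TRIM22, an antiviral ubiquitin ligase, rose by 0.80 (adjusted p = 0.0475) and SESN2, a sestrin that restrains mTORC1, fell by 1.35 (adjusted p = 0.0463). RAP2B and FUCA1 were not called. Against CTRL 11 (36.7%) rose and 10 (33.3%) fell in RBM5 OE, beside 19.8% and 20.2% of all genes tested. IER5, an immediate early gene, rose by 0.84 (adjusted p = 1.21e-05) and the stress transcription factor ATF3 by 2.01 (adjusted p = 6.49e-05). APAF1, the apoptosome scaffold, fell by 0.75 (adjusted p = 3.72e-05; standard error 0.079), and RPS27L, a ribosomal protein paralog, fell by 0.64 (adjusted p = 4.94e-05). Directly compared with RBM5 KO, 6 (20%) were higher and 12 (40%) lower, beside 19.5% and 20.6% of all genes tested. Among them were APAF1 at −0.92 (adjusted p = 1.17e-05), RPS27L at −0.91 (adjusted p = 1.88e-05), SESN1 at −0.81 (adjusted p = 1.98e-05) and SESN2 at 2.78 (adjusted p = 1.32e-05). The sestrins SESN1 and SESN2 thus moved in opposite directions. The median log2 fold changes over the 30 genes were 0.20, 0.03 and −0.24 in the 3 comparisons, beside 0.011, 0.013 and −0.0045 over all genes tested.

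Cell-cycle genes that p53 lowers through p21 and the DREAM repressor complex formed another list of 20, all tested. In RBM5 KO against CTRL 0 were called in edgeR or limma-voom and 1 was called higher in DESeq2. At an unadjusted p under 0.05, 4 were higher and 0 lower, beside 8.13% and 8.62% of all genes. The 4 with the smallest p were CDC20, CCNB1, PLK1 and TOP2A, at 0.25 to 0.63. With gain of RBM5, 13 (65%) rose and 2 (10%) fell against CTRL, with a median log2 fold change of 0.45. Of all genes tested 19.8% rose and 20.2% fell, with a median of 0.013. The mitotic kinases PLK1 and AURKB rose by 0.84 (adjusted p = 2.31e-05) and 0.61 (adjusted p = 0.000203), cyclin B2 (CCNB2) by 0.65 (adjusted p = 4.56e-05) and the mitotic kinesin KIF20A by 0.88 (adjusted p = 0.00018). Compared with RBM5 KO, 10 (50%) were higher and 2 (10%) lower, beside 19.5% and 20.6% of all genes tested. The 4 with the smallest p were CCNB2 (log2 fold change 0.58), AURKB (0.82), CDC25C (1.06) and PLK1 (0.59).

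**Figure D4:**
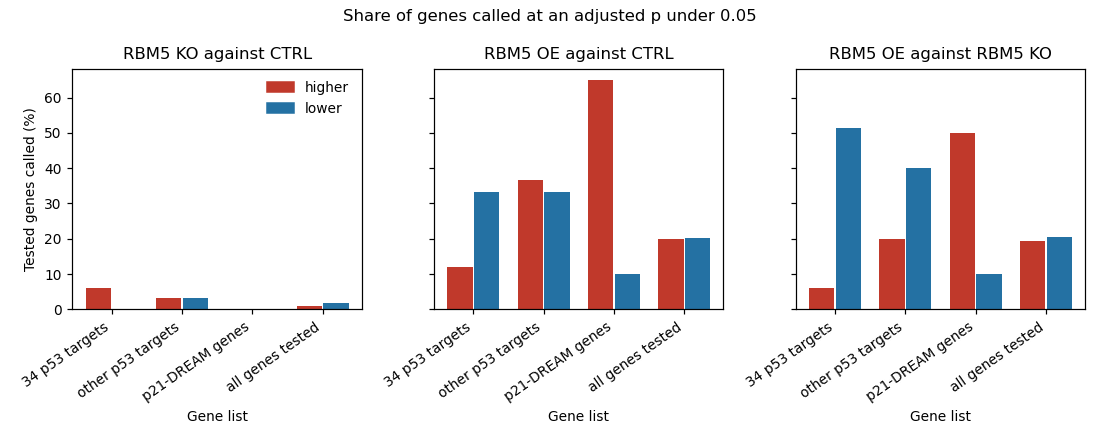
Share of tested genes (%, vertical axis from 0) called higher and lower at an adjusted p under 0.05 in each comparison, for the listed p53 targets (33 tested), 30 other p53 targets, 20 cell-cycle genes lowered through p21 and DREAM, and all genes tested. In RBM5 OE against RBM5 KO 51.5% of the members were lower, against 20.6% of all genes, while 50% of the p21-DREAM genes were higher.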

How the data were processed

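RNA was sequenced from 9 cultures after removal of ribosomal RNA. Per the labels, Trim Galore was used for trimming, STAR 2.7.1a for alignment to GRCh37 (hg19), GATK 4.1.2.0 for duplicates and RSEM, without strand, for counting. The deposited expected counts are RSEM's estimated counts per gene, unscaled. The deposited TPM values were scaled by the authors for length and library. Column totals were 25522952 to 26395707 in CTRL, 27304746 to 27871988 in RBM5 KO and 25969224 to 27826547 in RBM5 OE, and the table's 92 spike-in entries, all at 0, were dropped.

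Expected counts were rounded and tested with edgeR 4.0.16 in R 4.3.3 (filterByExpr, TMM, quasi-likelihood test, Benjamini-Hochberg over all genes tested). Each group was compared with CTRL in its 6 libraries, and RBM5 OE with RBM5 KO in all 9. CPM values use TMM-scaled totals. The biological coefficient of variation was 0.145 (RBM5 KO with CTRL), 0.0956 (RBM5 OE with CTRL) and 0.125 (all 9). The members, lists, markers and named-gene rule were chosen with earlier results of these data known. That rule gave values in every library for CDKN1A, BAX, BBC3, GADD45A, members called in RBM5 KO against CTRL and members called in RBM5 OE against CTRL with an absolute log2 fold change of at least 0.5, and named up to 4 genes with the smallest p per other list. A single item that this rule names is not reported here. PLK2 and TP53INP1 were added after their values were seen. Alternatives were DESeq2 1.42.0, limma-voom and limma 3.58.1 on log2(TPM + 1) and log2(TPM + 0.1), RLE scaling, library totals alone, no filter, a CPM of at least 1 in 3 libraries, a replicate block, other libraries in the fit, and libraries left out. The fits were tested on simulated data. Coordinates and p53 elements come from GENCODE v44lift37 and the GRCh37 genome. Figures were drawn with matplotlib 3.10.9.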

Additional observations from a re-analysis of the deposited data

How the results depend on the processing

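No member's call reversed in any alternative. In RBM5 KO against CTRL the number of members called higher, 2 in the reported fit, was 7 with DESeq2, 6 without a filter on low counts, 6 with all 9 libraries in 1 fit, 0 with limma on log2(TPM + 1) or log2(TPM + 0.1), 11 without both CTRL replicate 3 and RBM5 KO replicate 1, and 0 to 8 when 1 library was left out, the 8 without RBM5 KO replicate 1. The cause was not tested. The number called lower was 0 in all of these. With the replicate number as a block it was 0 higher and 0 lower in RBM5 KO against CTRL, 5 and 11 in RBM5 OE against CTRL and 2 and 16 in RBM5 OE against RBM5 KO. Same-numbered libraries deviated from their group means with correlations of −0.242 to 0.0989, so the numbers do not pair the libraries. In RBM5 OE against CTRL the number higher, 4, lay between 1 and 5 with any 1 library removed, with 1 without RBM5 OE replicate 1 and 2 without replicate 2, and the number lower ranged from 8 to 14 over all alternatives. In RBM5 OE against RBM5 KO 2 were higher throughout and 13 to 18 lower. Over single members, comparisons and alternatives 1666 results kept their side of the threshold, 54 lost a call and 58 gained one. DRAM1 in RBM5 OE lost its call on log2(TPM + 1) (adjusted p = 0.082). Without the filter the adjusted p of CDKN1A in RBM5 OE was 5.22e-19, far below the 0.0071 reported, and no weight is put on p-values of that fit. PERP, TNFRSF10C, ACER2 and TP53I3 had under 100 counts in every library, which limits what can be seen for them.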
